A study of Mus musculus with 38 samples.

Results

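A set of 9 metabolic genes known from mouse embryonic stem cells (mESCs), Tdh, Gcat, Gldc, Bhmt, Upp1, Chchd10, Cpt1a, Phgdh and Psat1, were followed from the pluripotent state into both lineages formed under retinoic acid (RA). These 9 of the 23475 genes of the bulk table were chosen by their measured levels in mESCs and by how those levels changed under RA, so their loss from the mESC state is a description and not a finding. All 9 were present in the bulk table, the SCRB-seq plates and the SMART-seq2 cells.

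The cells were E14, a single mESC line. mESCs were held in 2i/L, a serum-free N2B27 medium with 1 µM of the MEK inhibitor PD0325901, 3 µM of the GSK3 inhibitor CHIR99021 and 1000 U/ml LIF. All other samples came from these cells after the inhibitors and LIF were withdrawn, and whole cultures were taken after 6, 12, 24, 36, 48, 60, 72, 84 and 96 h in N2B27 with 0.25 µM RA. Withdrawal of 2i/L and addition of RA began together, so their effects cannot be told apart. At 96 h, cells with a CD24+/PDGFRA- surface (ectoderm-like) and a PDGFRA+/CD24- surface (XEN-like, resembling extraembryonic endoderm) were sorted, with 2 libraries each. Single libraries were made from an ectoderm-like culture at passage 5, from a XEN-like culture after 3 weeks (both started from cells sorted in this way, with 20 ng/ml EGF and 10 ng/ml FGF2), from PDGFRA- cells at 48 h in CD24 quartiles (Q1 to Q4) and at 72 h in CD24 terciles (T1 to T3), and from PDGFRA+/CD24- cells at 72 h. mESCs alone in the time course had 2 libraries, and every other time point had 1. The study's methods call the mESC and sorted libraries biological replicates, and the labels do not say what was repeated (the culture, the differentiation or the sort), so the p-values measure the spread between these libraries.

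The 25 bulk libraries held 1063809 to 2459424 unique molecular identifiers (UMIs, random tags that keep amplified copies of a molecule from being counted again), with a median of 1665335. Levels are given as UMIs per 1000000 of the library (CPM), and their 95% intervals are exact Poisson intervals that cover counting error only. Sorted ectoderm-like library 2 stood apart in its markers: its XEN-like list (11 genes) summed to 1779 CPM against 485 CPM in library 1, with Dab2 at 242 against 30.6 CPM. The sorted XEN-like libraries held 12050 and 6665 CPM of that list and all 11 ectoderm-like genes passed the test as lower in them (edgeR, adjusted p below 0.05). Pluripotency genes had not vanished from either fraction: Zfp42 (Rex1) stood at 82.8 and 46.5 CPM in the XEN-like libraries and the 12-gene list, most of it Dppa5a, summed to 6267 and 4524 CPM there against 790 and 432 CPM in the ectoderm-like ones. Without Dppa5a the list summed to 320 and 172 CPM in XEN-like and 297 and 159 CPM in ectoderm-like libraries.

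mESCs are known for an unusual dependence on threonine. Threonine dehydrogenase (Tdh) oxidizes it in the mitochondrion, Gcat splits the product into glycine and acetyl-CoA, and Gldc, the decarboxylase of the glycine cleavage system, passes a carbon of glycine to folate. Folate-bound carbon supplies nucleotide synthesis and, through the methionine cycle, the methyl donor S-adenosylmethionine. Phgdh and Psat1 make serine, the other major donor of one-carbon units, from a glycolytic intermediate. Bhmt returns homocysteine to methionine with betaine as methyl donor. Outside these routes, Upp1 splits uridine into uracil and ribose phosphate, Cpt1a carries out the committed step in the entry of long-chain fatty acids into mitochondria, and Chchd10 is a small protein of the mitochondrial intermembrane space.

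In the GENCODE M21 annotation of GRCm38, the assembly also called mm10 that the study used, all 9 are protein-coding genes. Tdh lies on the minus strand at chr14:63492347-63509092, Gcat on the plus strand at chr15:79030901-79042531 and Gldc on the minus strand at chr19:30098447-30175429. Bhmt lies on the minus strand at chr13:93616675-93637961, and its near relative Bhmt2 on the same strand at chr13:93655720-93674302. Upp1 (plus strand, chr11:9118103-9136170), Chchd10 (plus strand, chr10:75933130-75937747) and Cpt1a (plus strand, chr19:3322334-3385733) follow, with Phgdh (chr3:98313170-98339990) and Psat1 (chr19:15904678-15947337) on the minus strand. Reads shared by Bhmt and Bhmt2 could have been split by the alignment to mRNA sequences. Bhmt2 was low in both mESC libraries (7.87 and 4.35 CPM) and at 0 in all 4 sorted libraries.

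Promoter windows from RefSeq (GRCm38.p6) were matched to 8 of the 9 genes, all but Tdh. The 250 bases before each RefSeq start site were searched on both strands for a few fixed motifs. Windows are shown for Chchd10 and Bhmt, because they carry matches and because these transcripts fell under RA, and for Upp1, the member with the smallest adjusted p between the lineages, which holds no match. Capitals mark the matches, and each window is written 5′ to 3′ on the strand of its gene.
Chchd10 (chr10:75932880-75933129, plus strand): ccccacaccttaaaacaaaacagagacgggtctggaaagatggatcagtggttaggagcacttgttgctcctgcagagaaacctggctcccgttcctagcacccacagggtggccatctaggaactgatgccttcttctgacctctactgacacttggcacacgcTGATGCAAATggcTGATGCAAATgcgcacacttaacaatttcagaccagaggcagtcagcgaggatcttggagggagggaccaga
Bhmt (chr13:93637759-93638008, minus strand): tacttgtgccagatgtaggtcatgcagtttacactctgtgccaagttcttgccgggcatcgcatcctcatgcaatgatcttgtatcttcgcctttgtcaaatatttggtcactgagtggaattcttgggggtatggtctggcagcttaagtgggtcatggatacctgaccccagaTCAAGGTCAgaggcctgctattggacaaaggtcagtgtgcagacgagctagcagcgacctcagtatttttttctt
Upp1, the middle of 3 RefSeq starts (chr11:9117853-9118102, plus strand): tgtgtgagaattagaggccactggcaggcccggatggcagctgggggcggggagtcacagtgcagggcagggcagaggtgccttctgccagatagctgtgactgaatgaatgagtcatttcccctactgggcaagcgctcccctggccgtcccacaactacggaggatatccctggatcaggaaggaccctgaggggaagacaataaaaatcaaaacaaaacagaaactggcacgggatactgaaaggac
The Chchd10 window held the octamer ATGCAAAT, the classical site of POU factors such as Oct4, at positions -83 and -70 from the start site. Each copy overlapped a match to TGATGCAA, the composite element of C/EBP and ATF factors, at -85 and -72. Of all 32851 promoter windows, 1.6% held the octamer and 0.791% the composite element. The Bhmt window held TCAAGGTCA, the extended half-site of estrogen-related receptors such as Esrrb, at -75, and 0.387% of all windows held this motif. By the GENCODE span given above this match lies inside Bhmt, because the RefSeq start is further in. No window of the 8 genes held CACGTG (E-box, 6.02% of all windows), TGACGTCA (cyclic AMP response element, 1.55%), CATTGTT (Sox, 3.29%) or a direct repeat of AGGTCA with 5 bases between the repeats (0.00913%). A match is a string of letters, and binding was not measured here.

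Tdh was the most abundant of the 9 transcripts in mESCs by SMART-seq2, whose RPKM values are scaled by transcript length. Its mean over 82 cells was 642 normalized RPKM, followed by Upp1 at 465, Chchd10 at 268, Psat1 at 128, Gcat at 89.9, Bhmt at 71.7, Cpt1a at 38.8, Phgdh at 33.99 and Gldc at 21.2. Neighbours in this order overlapped widely from cell to cell. The middle 50% of cells spanned 507 to 765 for Tdh and 310 to 584 for Upp1, and 56.5 to 114 for Gcat and 67.5 to 149 for Psat1.

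The 9 genes were not lost together (plot of the bulk time course by gene). Time of loss was taken as the earliest time point from which the level stayed at or below 50% of the mean of the mESC libraries. By this measure, in whole cultures, Bhmt and Cpt1a were lost by 6 h and Tdh by 12 h. Upp1 and Chchd10 were lost by 48 h and Gcat by 72 h. Gldc, Phgdh and Psat1 had no time of loss within 96 h in bulk. In summed SCRB-seq cells, by the same measure, Psat1 was lost by 6 h and Gldc by 96 h, and Phgdh again had no time of loss. The label of mESC genes therefore holds in full for only some of them. Phgdh ended above its mESC mean, and Chchd10 in bulk peaked at 12 h. The SMART-seq2 median of Chchd10 also rose from 0 h to 12 h. Its summed SCRB-seq level was instead highest at 0 h and had fallen by 12 h, with no overlap of the 95% intervals. The assays thus differed on an early rise of Chchd10.

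**Figure D1:**
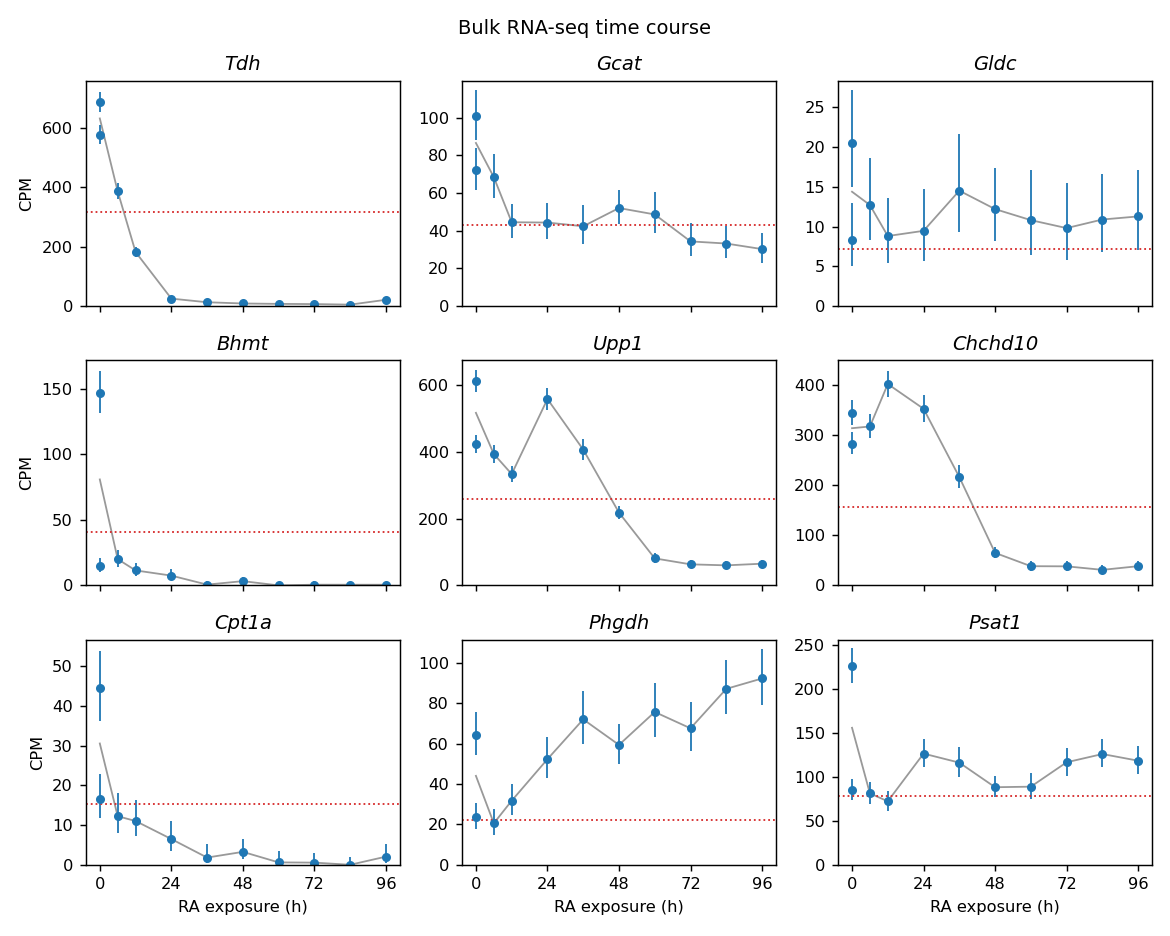
Bulk level (CPM, linear axes from 0) of each gene against hours of RA. Points are single libraries with exact 95% Poisson intervals (2 libraries at 0 h), the grey line joins the means, and the dotted line marks 50% of the mESC mean. Tdh falls to 24.9 CPM by 24 h, Upp1 and Chchd10 stay above the dotted line until 36 h, and Phgdh climbs to 92.3 CPM at 96 h.

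Tdh fell in the first day. It stood at 575 CPM (545 to 607) and 686 CPM (652 to 720) in the mESC libraries. After 6, 12 and 24 h of RA it was 385, 182 and 24.9 CPM, and each of these values lay below the interval of the one before. The level went on down to 12.7 CPM at 36 h, 8.54 at 48 h, 7.21 at 60 h, 6.54 at 72 h and 4.67 at 84 h (9 UMIs), and then stood at 21.01 CPM (41 UMIs) at 96 h. The last step was a rise of 4.50-fold (2.16 to 10.5 by an exact interval conditional on both counts). Tdh was the only 1 of 6 members with at least 50 counts in the pair to differ by 2-fold or more between 84 h and 96 h, against 1.99% of all genes with that many counts. Over the same step the XEN-like list rose from 6230 to 12300 CPM and its part in the rise of Tdh was not tested.

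Gcat, the next enzyme of threonine breakdown, moved less than Tdh. It went from 72.2 and 101 CPM in mESCs to 44.5 CPM at 12 h, held between 42.4 and 52.04 CPM up to 60 h, and ended at 30.2 CPM, 2.87-fold (2.18 to 3.83) under the mESC mean. Gldc was low throughout, with 8.31 and 20.5 CPM in the mESC libraries and 8.81 to 14.5 CPM at every later time point. All its time-course values lay between those of the mESC libraries.

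Bhmt and Cpt1a disappeared almost fully. Bhmt stood at 20.1 CPM at 6 h, 11.5 at 12 h, 7.47 at 24 h and 0.605 at 36 h, and from 60 h on no library of the time course held more than 1 UMI of it. Cpt1a stood at 12.2 CPM at 6 h, 11.01 at 12 h, 6.48 at 24 h and 1.82 at 36 h, and at 84 h no UMI was seen, which allows up to 1.56 CPM (3 counts). At 96 h it had 4 UMIs (2.05 CPM).

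In whole cultures, Upp1 and Chchd10 were held through the first day and were lost between 36 h and 60 h. Upp1 dipped from 612 and 423 CPM in mESCs to 334 CPM at 12 h, stood at 559 CPM at 24 h and 407 at 36 h, and then dropped to 218 CPM at 48 h, 81.1 at 60 h and 65.1 CPM at 96 h. Chchd10 rose from 284 and 345 CPM to 403 CPM at 12 h, was still at 353 CPM at 24 h, and fell to 217 CPM at 36 h, 65.1 at 48 h and 38.4 CPM at 96 h. At 96 h, Upp1 was 7.95-fold (6.65 to 9.58) and Chchd10 8.18-fold (6.48 to 10.5) below the mESC mean.

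Of the serine synthesis pair, Phgdh ended higher than it began and Psat1 did not. Phgdh, the entry enzyme, was at 20.5 CPM at 6 h, 52.3 CPM at 24 h, 72.0 at 36 h and 92.3 CPM at 96 h, which was 2.09-fold (1.70 to 2.57) over the mESC mean by library totals and 1.60-fold with TMM scaling, which shifted all 96 h ratios to mESCs by -0.38 on the log2 scale and turned none of these directions. Psat1, the aminotransferase of the pathway, lay between 72.3 and 127 CPM at all 9 RA time points, between or just under its mESC values of 85.3 and 226 CPM.

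The pair of mESC libraries differed by 2-fold or more for 5 of the 9 genes. Of 5480 genes with at least 50 counts over both, 8.74% differed by 2-fold or more. The members were chosen with their mESC levels known, so their count is a description. Bhmt was at 147 CPM (336 UMIs) in library 1 and 14.8 CPM (34 UMIs) in library 2, a 9.93-fold difference (6.97 to 14.6), and it ranked 15 from the lowest of the 5480 genes in the ratio of library 2 to library 1. The other 4 went the opposite way, higher in library 2 by similar factors: Phgdh at 64.4 against 23.6 CPM (2.73-fold, 1.98 to 3.80), Cpt1a at 44.4 against 16.6 CPM (2.67-fold, 1.82 to 3.99), Psat1 at 226 against 85.3 CPM (2.65-fold, 2.25 to 3.14) and Gldc at 20.5 against 8.31 CPM (2.46-fold, 1.42 to 4.44). Tdh differed by 1.19-fold, Chchd10 by 1.22-fold, Gcat by 1.40-fold and Upp1, lower in library 2, by 1.45-fold.

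**Figure D2:**
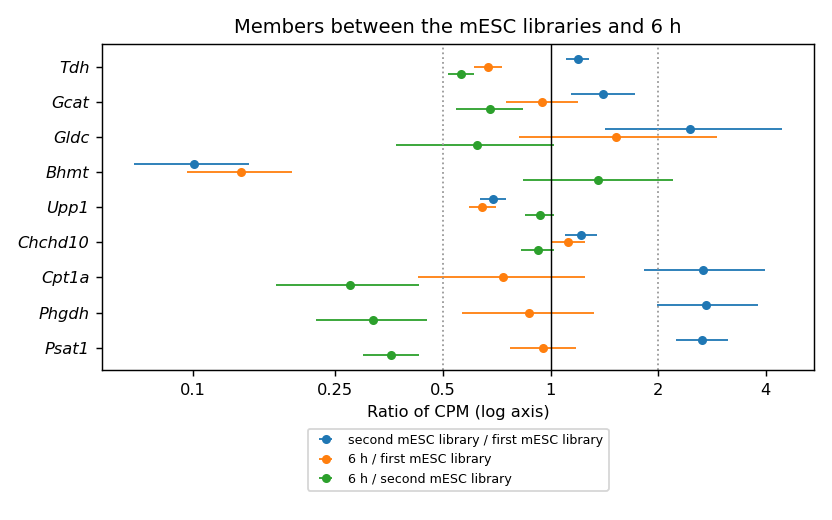
Ratio of CPM for each gene on a log axis, with exact 95% intervals: mESC library 2 over library 1, and the 6 h library over each of them; dotted lines mark a 2-fold difference. Bhmt is 0.101 in the comparison of the mESC libraries and 1.35 in 6 h over library 2, whereas Phgdh, Psat1 and Cpt1a at 6 h lie close to library 1.

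The 6 h library was set beside each mESC library in turn. A value at 6 h cannot show the level at 0 h, because it can follow from no change or from a fall within 6 h. Phgdh, Psat1 and Cpt1a at 6 h were at 0.869 (0.567 to 1.33), 0.952 (0.769 to 1.18) and 0.735 (0.425 to 1.25) of mESC library 1, but at 0.319, 0.359 and 0.275 of library 2, with upper limits of 0.452, 0.428 and 0.430. Bhmt was the reverse, at 0.136 (0.0961 to 0.189) of library 1 and 1.35 (0.839 to 2.20) of library 2. The labels of library 1, the time course and the sorted cells list a sample barcode, and those of library 2 and the CD24 fractions list none, so the difference between the mESC libraries cannot be told apart from a difference between these sets of libraries. Within the set that lists one, Cpt1a was lost by 24 h and not by 6 h, and against library 2 alone Bhmt was lost by 36 h.

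Single-cell assays of separate mESC samples fell on either side. In the SCRB-seq plate at 0 h (282 wells with more than 2000 UMIs, 1884093 UMIs in sum), Bhmt stood at 13.8 UMIs per 1000000 (9.01 to 20.2), Phgdh at 64.8 (53.8 to 77.3), Psat1 at 323 (298 to 349) and Cpt1a at 104.6 (90.5 to 120). These Bhmt and Phgdh values were close to those of mESC library 2, whereas those of Psat1 and Cpt1a exceeded both libraries. By 6 h on these plates Psat1 had dropped to between 50.02 and 69.1 UMIs per 1000000 (153 UMIs) and Phgdh to 25.5. By SMART-seq2, 61 of 82 mESCs had Bhmt over 1 normalized RPKM, with quartiles of 2.68, 39.9 and 89.9 and a maximum of 504, the largest interquartile range relative to the median of the 9 genes in these cells. These assays differ in chemistry and scaling, and values are set side by side without a test.

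Cell by cell, Tdh was found in most mESCs by both assays (plot of cells in which each gene was detected). The share of cells was far lower by 24 h in thinned SCRB-seq cells, but only by 48 h in SMART-seq2. After each SCRB-seq cell was thinned to 2000 UMIs, 61.7% of cells at 0 h had a Tdh UMI (79.1% unthinned), 48.4% at 6 h, 35.8% at 12 h, 14.8% at 24 h and 5.69% at 36 h. At 48 h it was 2 of 277 cells, at 60 h 8 of 273 and at 72 h none of 235 (3 cells before thinning). The count at 60 h was above that at 48 h, with 16.9 against 3.12 UMIs per 1000000, so the fall was not steady. A count of 0 here allows up to 1.28% of cells with a UMI at this depth (3 counts) and does not limit the share of cells with the transcript. In SMART-seq2, all 82 and 86 cells at 0 and 12 h had Tdh over 1 normalized RPKM, 81 of 89 cells had it at 24 h and 18 of 82 at 48 h, while the median went from 651 to 224, 60.3 and 0. At 12 h the level had thus fallen in cells that all still had the transcript.

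**Figure D3:**
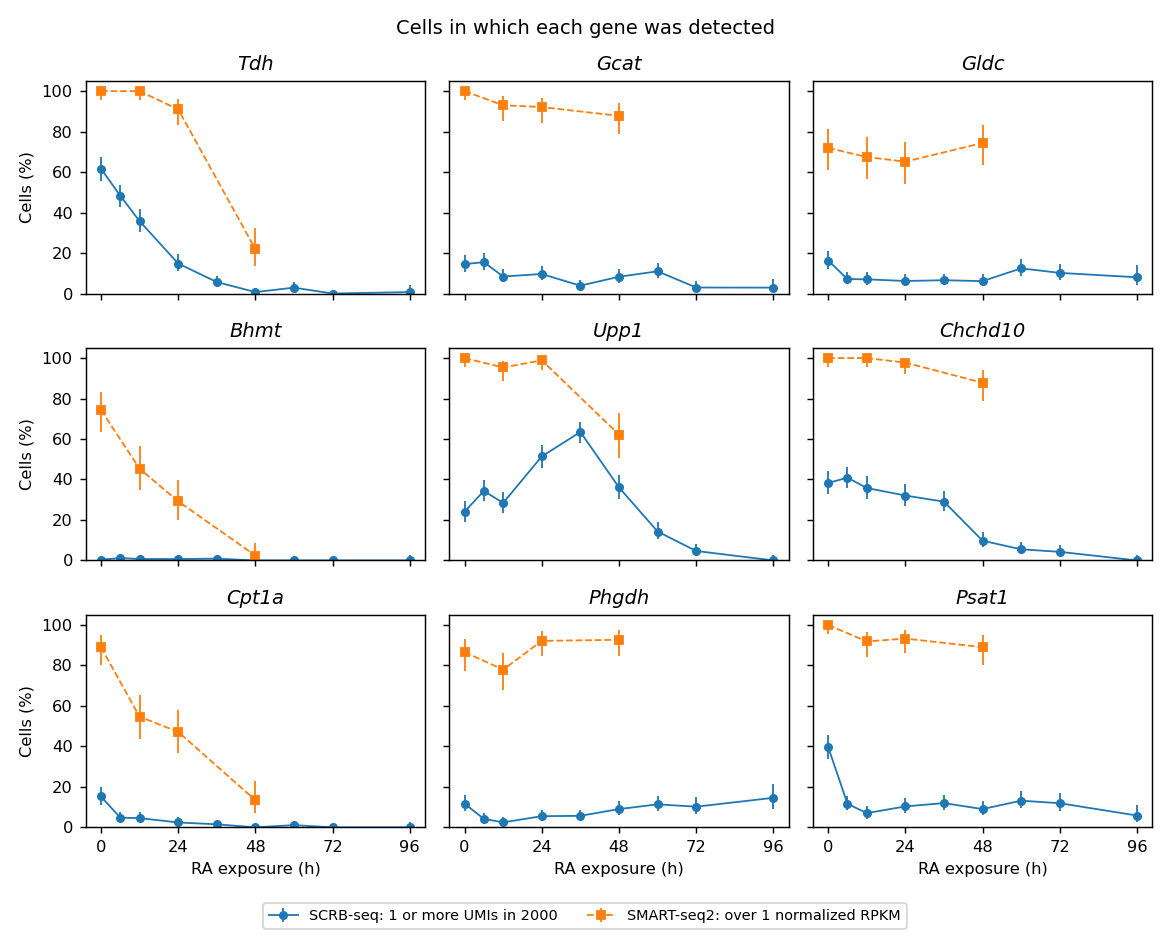
Percent of cells in which each gene was detected against hours of RA. Blue circles are SCRB-seq cells with a UMI after thinning to 2000 UMIs, orange squares SMART-seq2 cells over 1 normalized RPKM, both with exact 95% binomial intervals. Tdh drops from 61.7% to 14.8% of SCRB-seq cells within 24 h, and Upp1 reaches its highest share, 63.5%, at 36 h.

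Upp1 took a different course in single cells. The thinned share of SCRB-seq cells with Upp1 was 24.1% at 0 h, 34.3% at 6 h, 28.4% at 12 h, 51.4% at 24 h and 63.5% at 36 h, and then 36.1%, 14.3% and 4.68% at 48, 60 and 72 h. No thinned cell of 137 had a UMI of it at 96 h, and 1 cell did before thinning. The summed level went from 139 UMIs per 1000000 at 0 h to 582 at 36 h, a rise that the bulk cultures (612 and 423 against 407 CPM) did not share. In SMART-seq2, the Upp1 median was 480 normalized RPKM at 0 h, 205 at 12 h, 391 at 24 h and 37.9 at 48 h, when 31 of 82 cells were at or below 1 and the highest cell was at 1217.

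Chchd10 was seen in 38.3% of thinned SCRB-seq cells at 0 h, 29.04% at 36 h and 9.75% at 48 h. Its SMART-seq2 median stood at 267, 375 and 366 normalized RPKM at 0, 12 and 24 h and at 63.5 at 48 h. Cpt1a went from 89.02% of SMART-seq2 cells at 0 h to 54.7%, 47.2% and 13.4% at 12, 24 and 48 h, and Bhmt from 74.4% to 45.3%, 29.2% and 2.44%. In SMART-seq2 the median of Phgdh rose from 23.9 at 0 h to 64.3 at 48 h, Psat1 was at 104 and 112, and Gldc was over 1 in 72.0% of cells at 0 h and 74.4% at 48 h. In thinned SCRB-seq cells the shares over the same interval went from 11.7% to 9.03% for Phgdh, from 39.7% to 9.03% for Psat1 and from 16.3% to 6.14% for Gldc. SCRB-seq sums weight deep wells more, whereas thinned shares weight each cell alike, and cells are not replicates, so no test was run.

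The 48 h fractions sorted by CD24 gave the steepest gradient for Upp1 (plot of the CD24 fractions). Upp1 stood at 870, 694, 514 and 232 CPM from Q1 (lowest Cd24a transcript, 19.4 CPM) to Q4 (highest, 127 CPM), a fall of 3.75-fold (3.33 to 4.22). These were 168%, 134%, 99.4% and 44.9% of the mESC mean, against 42.2% in the whole 48 h culture (218 CPM). Only Q4 was thus below the 50% limit used for the time of loss. The fractions and the time course were separate samples, and the source of this difference was not tested. Chchd10 fell from 127 to 101, 88.4 and 53.7 CPM, 2.37-fold (1.82 to 3.10). Tdh had 22.7 CPM in Q1 and 11.4 CPM in Q4, 2.00-fold (1.10 to 3.76). These 3 of the 6 members with at least 50 counts in the pair were lower by 2-fold or more in Q4 (Tdh at the limit itself), against 2.9% of all genes with that many. The pluripotency list without Dppa5a went the same way, from 962 to 871, 760 and 575 CPM, and its part in these gradients was not tested. The members were chosen by how they changed under RA. The paper took CD24 at 48 h to mark the adoption of a state like the post-implantation epiblast. The share of members lower in Q4 is therefore a description.

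Gcat, Phgdh and Gldc ran in the other direction. Gcat rose from 40.8 to 65.04 CPM (1.59-fold, 1.15 to 2.23), Phgdh from 38.8 to 58.7 CPM (1.51-fold, 1.08 to 2.14), and Gldc from 3.34 to 11.4 CPM on 5 and 18 UMIs. Psat1 was flat at 82.3 to 87.8 CPM. Bhmt had 4 and 3 UMIs in Q1 and Q2 and none in Q3 and Q4.

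**Figure D4:**
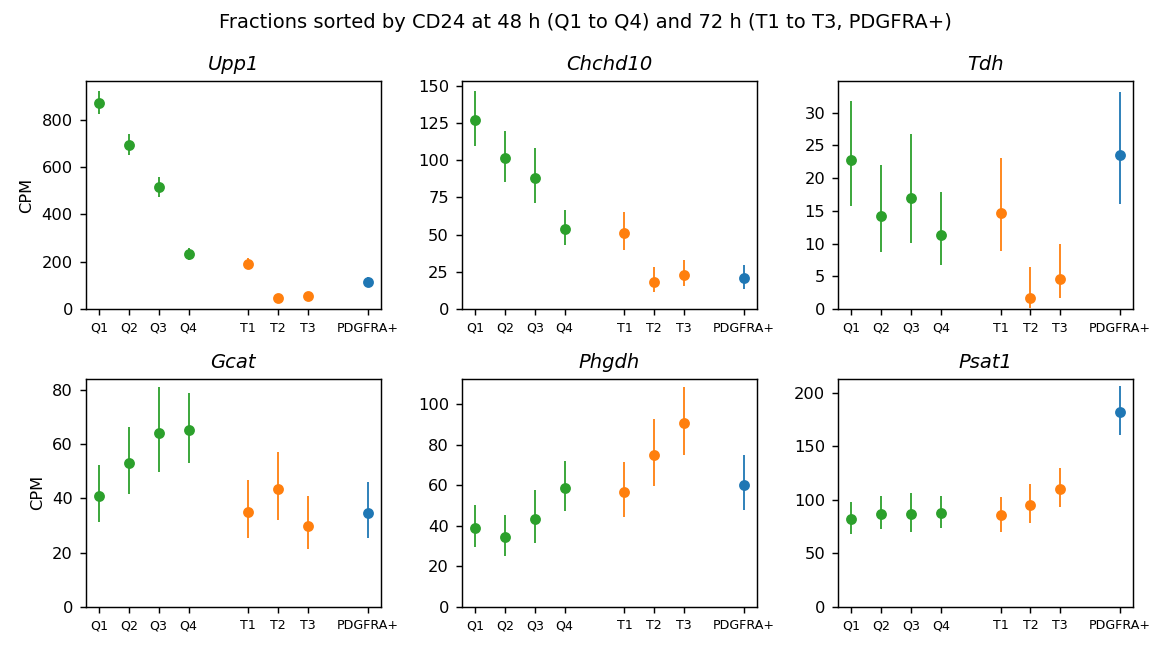
CPM of 6 genes in single libraries of sorted cells with exact 95% Poisson intervals: CD24 quartiles of PDGFRA- cells at 48 h (green), CD24 terciles of PDGFRA- cells at 72 h (orange) and PDGFRA+/CD24- cells at 72 h (blue). Upp1 falls from 870 to 232 CPM over the quartiles, and Psat1 is highest, at 182 CPM, in the PDGFRA+ fraction.

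At 72 h the tercile with the least CD24 still held more Upp1, Chchd10 and Tdh. Upp1 was at 190 CPM in T1, 47.6 in T2 and 56.03 in T3, and Chchd10 at 51.3, 18.5 and 23.03 CPM. These 2 of the 5 members with at least 50 counts were lower by 2-fold or more in T3 than in T1, against 6.6% of all genes. Given how the members were chosen, this share is a description as well. Tdh had 14.8, 1.76 and 4.61 CPM on 19, 2 and 6 UMIs. T1 also held the most of the XEN-like list (797 CPM against 473 and 356) and of the pluripotency list without Dppa5a (660 CPM against 356 and 262).

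PDGFRA+/CD24- cells at 72 h held 23.5 CPM of Tdh (32 UMIs) against 7.25 CPM in the PDGFRA- terciles taken as a whole, 3.24-fold higher (1.88 to 5.63). Tdh was the only 1 of 6 members with enough counts to differ by 2-fold or more in this pair, where 23.2% of all genes did, so such a share is no result about these genes. Psat1 was at 182 against 97.2 CPM (1.88-fold, 1.59 to 2.21, and 2.13-fold with TMM scaling). Upp1, at 115 against 99.9 CPM, did not differ beyond counting error by library totals (1.155-fold, 0.952 to 1.40), and the ratio was 1.32-fold with TMM scaling. Its PDGFRA- terciles lay on either side of the PDGFRA+ value, at 190 CPM in T1, 47.6 in T2 and 56.03 in T3.

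In sorted cells at 96 h the residual levels differed between the lineages for 2 of the 9 members. Tdh stood at 4.45 and 6.46 CPM in the ectoderm-like libraries and 18.3 and 21.9 CPM in the XEN-like libraries. The means were 5.45 ± 1.43 and 20.1 ± 2.54 CPM (SD, n = 2 each). The groups did not overlap, the XEN-like cells holding more (log2 fold change 1.97, SE 0.39, adjusted p = 0.00836, edgeR with its quasi-likelihood F-test). Upp1 stood at 16.7 and 14.9 CPM in ectoderm-like and 71.1 and 40.1 CPM in XEN-like cells, again without overlap (log2 fold change 1.92, SE 0.33, adjusted p = 0.0042 by edgeR). Of all 8945 genes tested, 12.7% passed in this contrast, and 2 of 9 is read against that share. Bhmt and Cpt1a passed the low-count filter only through the mESC libraries, and a fit of the 4 sorted libraries alone tested 7 members. The members were chosen with earlier results of these data known, so these tests are not independent support. Of the 12 pluripotency genes, Dppa5a, Klf2, Klf4, Pou5f1 and Zfp42 were also called higher in XEN-like cells and Sox2 lower, and the part of residual pluripotent cells or transcripts in the Tdh and Upp1 values was not tested. In bulk samples, fewer cells with a transcript and less of it per cell cannot be told apart.

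The calls rested on sorted ectoderm-like library 1: without it, Tdh differed by 1.68 on the log2 scale with adjusted p = 0.112 and Upp1 by 1.98 with adjusted p = 0.0576 (edgeR), and no member was called (3 of 9 at an unadjusted p below 0.05). Without library 2, which carried more XEN-like markers, both were called, with log2 fold changes of 2.35 and 1.95. In such a fit the lone library of a group is assumed to vary like the others. With 2 libraries a group, the smallest p an exact permutation test can reach is 0.333.

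The other 7 members were not called between the lineages, and for Bhmt and Cpt1a the sorted libraries held too few UMIs to decide. Gldc had 14.5 and 12.3 CPM in ectoderm-like and 1.52 and 4.56 CPM in XEN-like cells, on 26, 19, 3 and 5 UMIs, with no overlap and adjusted p = 0.0624 by edgeR (log2 fold change -2.18, SE 0.69). It was called by edgeR without the low-count filter (adjusted p = 0.00494), with the 4 sorted libraries only (0.0289) and without mESC library 1 (0.0211) or 2 (0.0300), and not by DESeq2 (0.205) or without any 1 of the sorted libraries (0.0585 to 0.371). Psat1 was at 93.4 and 105.3 CPM in ectoderm-like and 145 and 137 CPM in XEN-like cells (log2 fold change 0.61, SE 0.40, adjusted p = 0.376 by edgeR). Gcat (36.1 and 33.6 against 41.1 and 18.2 CPM), Chchd10 (12.8 and 14.2 against 17.8 and 14.6 CPM) and Phgdh (63.4 and 95.6 against 50.3 and 84.8 CPM) differed by 0.37 or less on the log2 scale, each with an SE of at least 0.34.

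Cpt1a had no UMI in either ectoderm-like library and 4 and 1 UMIs in the XEN-like ones. Bhmt had none in all 4 sorted libraries, so no fold between the lineages is given for it. A count of 0 allows 1.67 and 1.94 CPM in the ectoderm-like libraries and 1.52 and 2.73 CPM in the XEN-like ones (3 counts each).

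**Figure D5:**
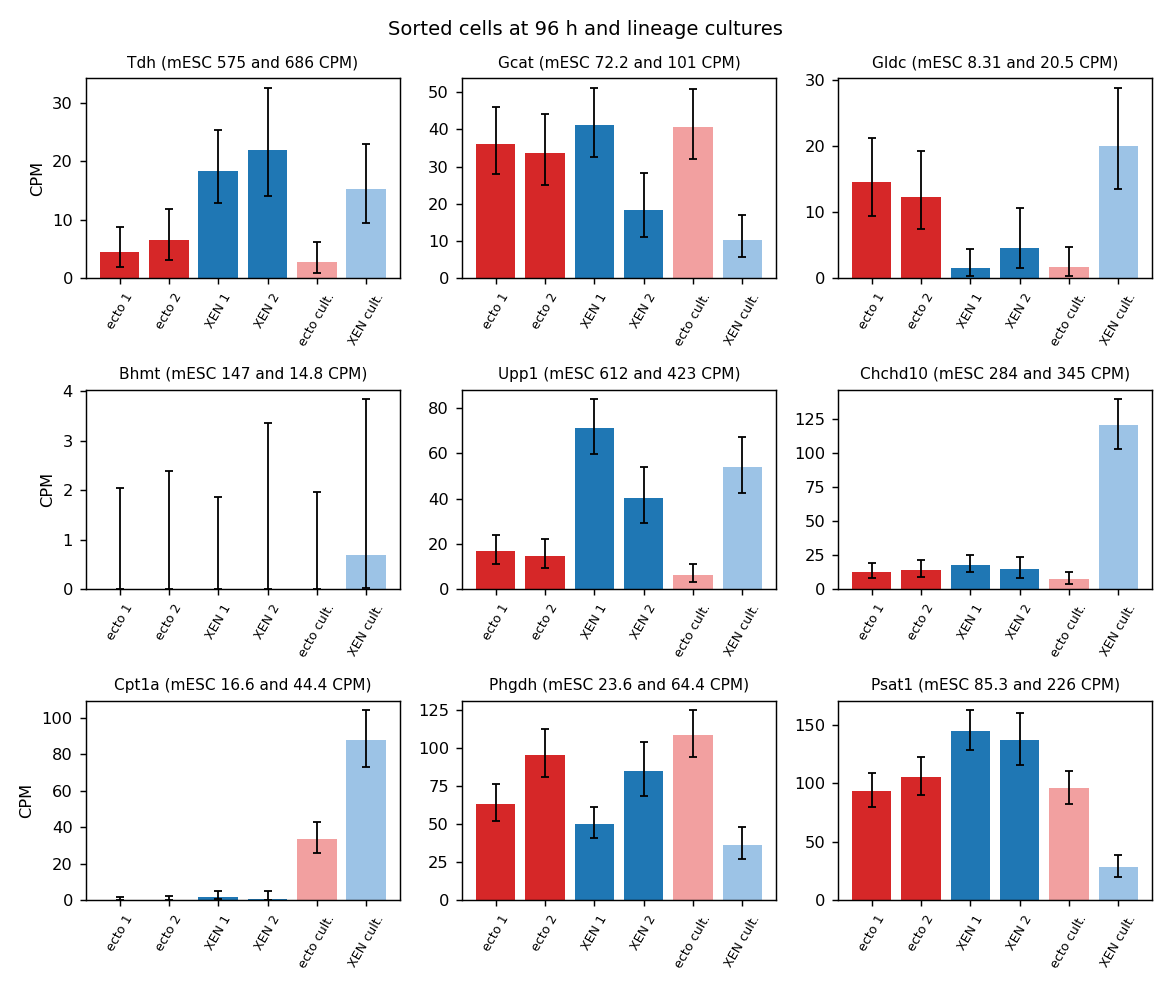
CPM of each gene in the sorted ectoderm-like (red) and XEN-like (blue) libraries and in the cultures derived from them (pale), with exact 95% Poisson intervals; the mESC values stand in each panel title. Tdh and Upp1 are higher in both XEN-like libraries than in both ectoderm-like ones, and Cpt1a and Chchd10 reach 87.6 and 120 CPM in the XEN-like culture.

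Against mESCs, 6 of the 9 members were called lower in ectoderm-like cells and 7 in XEN-like cells, where 9.27% and 10.5% of all genes were called lower. The members were picked for this contrast and nothing is read from these counts, and Bhmt and Cpt1a passed the low-count filter only through the mESC libraries. Relative to the mean of the mESC libraries, ectoderm-like and XEN-like cells held 0.865% and 3.19% of Tdh, 3.05% and 10.7% of Upp1, 4.29% and 5.15% of Chchd10 and 40.3% and 34.3% of Gcat. Bhmt was at least 90.1-fold lower in ectoderm-like and 82.5-fold lower in XEN-like cells, and Cpt1a at least 34.1-fold lower in ectoderm-like cells (floor of 3 counts over the group). These bounds follow the mESC library taken as reference, a comparison chosen after seeing the data: against library 2 alone Bhmt was at least 16.5-fold lower in ectoderm-like and 15.1-fold lower in XEN-like cells and against library 1 alone at least 164-fold and 150.2-fold lower, and the bound for Cpt1a was 18.6-fold against library 1 and 49.5-fold against library 2. Phgdh was at 181% and 153%, and Psat1 at 63.8% and 90.3%. Neither was called, and without mESC library 1 the log2 fold change of Phgdh turned to -0.055 and -0.18. Both contrasts share the mESC libraries, which differed from each other for Bhmt, Cpt1a, Phgdh, Psat1 and Gldc as given above.

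The residual Tdh and Upp1 of the sorted XEN-like fraction were not seen on the 96 h SCRB-seq plate. Wells were classed by whether the XEN-like or the ectoderm-like list had more UMIs, which is a range of a score and not a type. At 96 h, 116 cells had more XEN-like UMIs (median 50 against 6, with 6 cells within 2 UMIs of the boundary), and in their 628548 UMIs there was 1 of Tdh and 1 of Upp1. This gives 1.59 per 1000000 with an upper limit of 8.86, under the lower of the sorted XEN-like values, 18.3 CPM for Tdh and 40.1 CPM for Upp1. Phgdh was at 100.2 per 1000000 in the same cells and Psat1 at 82.7. Gldc went the other way, at 41.4 per 1000000 (27.02 to 60.6) in these cells and 1.52 and 4.56 CPM in the sorted libraries. At 72 h, 33 such cells held Upp1 at 73.3 per 1000000 (36.6 to 131) against 23.8 (15.7 to 34.7) in the 195 cells with more ectoderm-like UMIs, and Tdh had 1 and 2 UMIs. Of these 33 and 195 cells, 6 and 26 lay within 2 UMIs of the boundary. The plates and the sorted fractions were separate samples, and the source of the difference was not tested.

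In SMART-seq2 cells at 48 h, the 10 cells with the highest Pdgfra had Upp1 at a median of 218 normalized RPKM, with all 10 over 1, the 29 of the others with the highest Cd24a had a median of 0, with 11 of 29 over 1, and the remaining 43 had 58.1, with 30 over 1. Tdh was over 1 in 4 of 10, 7 of 29 and 7 of 43 cells. Zfp42 medians were 51.2, 16.4 and 40.7 in the same order.

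After long-term growth Cpt1a was high again in both cultures started from the sorted lineages, and Chchd10 in the XEN-like culture. Cpt1a stood at 33.7 CPM (25.9 to 43.2) in the ectoderm-like culture, at least 37.6-fold higher than in the sorted ectoderm-like libraries, and at 87.6 CPM (73.04 to 104) in the XEN-like culture, 53.7-fold (22.4 to 168) over sorted XEN-like cells and above both mESC libraries. Chchd10 stood at 120 CPM in the XEN-like culture, 7.22-fold (5.25 to 10.1) over the sorted cells, and at 7.50 CPM in the ectoderm-like culture. Gldc stood at 20.0 CPM in the XEN-like culture against 2.61 CPM in the sorted XEN-like cells, and at 1.61 against 13.4 CPM in the ectoderm-like culture, the opposite order. Psat1 fell 5.02-fold (3.64 to 7.09) to 28.3 CPM and Gcat 3.18-fold (1.84 to 5.90) to 10.4 CPM in the XEN-like culture. Phgdh was at 109 CPM in the ectoderm-like and 36.6 CPM in the XEN-like culture.

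Tdh stayed low in both cultures, at 2.68 CPM (5 UMIs) in the ectoderm-like and 15.2 CPM (22 UMIs) in the XEN-like one. Upp1 was at 6.42 and 53.8 CPM, and both genes stood in the order seen in the sorted cells. Between the cultures 40.7% of all genes with at least 50 counts differed by 2-fold or more, as did 6 of 6 members with that many. Tdh had too few counts to be among them. Such an order is therefore no result about these genes. Of members with at least 50 counts, 2 of 6 differed by 2-fold or more between the ectoderm-like culture and the sorted cells and 4 of 7 between the XEN-like culture and the sorted cells, where 27.7% and 38.6% of all genes did. The cultures differ from the sorted cells in time and medium as well as selection, and each is 1 library. The ectoderm-like culture held 1653 CPM of the ectoderm-like list and 2235 CPM of the XEN-like list. The XEN-like culture held 1552 and 10100 CPM of these lists. Cd24a stood at 18.7 CPM in the ectoderm-like and 421 CPM in the XEN-like culture, the reverse of the sort. The names of the cultures thus follow the sorted cells they came from. The part of these markers in the values of the members was not tested.

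Of 111 further genes of the surrounding pathways found in the table, 86 were tested between the lineages, and 5 were higher and 4 lower in XEN-like cells, beside 12.7% of all genes called in either direction. Among 11 tested genes of serine, glycine and threonine metabolism only Gcsh, the carrier protein of the glycine cleavage system that works beside Gldc, was called: 308 and 372 CPM in XEN-like against 146 and 170 CPM in ectoderm-like cells (log2 fold change 1.22, adjusted p = 0.0155 by edgeR). Of 15 folate genes, Slc46a1, the proton-coupled folate transporter (68.6 and 48.3 against 16.1 and 14.2 CPM), and Mthfd1, the cytosolic trifunctional enzyme (99.0 and 90.2 against 56.1 and 42.6 CPM), were higher in XEN-like cells. Mthfd2l, a mitochondrial dehydrogenase, was lower, at 0 and 0.912 against 7.78 and 7.11 CPM.

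Of 18 tested genes of the methionine cycle only the spermine synthase Sms was called, at 48.8 and 60.2 CPM in XEN-like against 137 and 176 CPM in ectoderm-like cells. Of 12 pyrimidine genes only the deoxycytidine kinase Dck was called, also lower (17.8 and 15.5 against 46.1 and 48.5 CPM). Of 23 genes of fatty acid oxidation, Acadm, the medium-chain acyl-CoA dehydrogenase (100.1 and 84.8 against 28.3 and 31.7 CPM), and Etfdh (35.6 and 40.1 against 16.7 and 16.8 CPM) were higher and Decr1 (12.7 and 10.0 against 26.7 and 36.8 CPM) lower in XEN-like cells. None of 7 CHCHD family genes was called by edgeR, none by DESeq2, and none had an unadjusted p below 0.05. The median log2 fold change ran from -0.14 in the methionine cycle to 0.48 in serine, glycine and threonine metabolism, beside -0.06 over all genes tested. Without sorted ectoderm-like library 1 none of the list genes was called by edgeR (11 at an unadjusted p below 0.05). Without ectoderm-like library 2 or XEN-like library 1 the called genes were Gcsh, Slc46a1 and Acadm, and without XEN-like library 2 Slc46a1 and Acadm. Without mESC library 1 or 2, 13 and 12 were called. DESeq2 called 7 list genes. These lists too were chosen with earlier results of these data known.

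Cth, the cystathionine lyase that makes cysteine from the methionine cycle, was the 1 list gene over 50 CPM in mESCs to lie 4-fold or more away in both lineages: 122 and 199 CPM in mESCs, 11.1 and 18.1 CPM in ectoderm-like and 24.4 and 20.96 CPM in XEN-like cells.

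Across the 25 bulk libraries, the genes whose log2(CPM + 1) followed Tdh most closely, among 2165 genes with at least 50 CPM in mESCs, were Tcl1 (Pearson r 0.95), Eif2s2 (0.924), Lap3 (0.918), Esrrb (0.906) and Bcat1 (0.894). Tcl1 is a cofactor of AKT kinase, Eif2s2 a subunit of a translation initiation factor, Lap3 a leucine aminopeptidase, Esrrb an orphan nuclear receptor of naive pluripotency and Bcat1 the cytosolic branched-chain aminotransferase. Among the members, Upp1 and Chchd10 (r 0.848) and Tdh and Bhmt (0.843) were most alike, Phgdh ran opposite to Chchd10 (-0.708), Bhmt (-0.699), Upp1 (-0.687) and Tdh (-0.671), and Gcat and Gldc were unrelated (0.028). The libraries share one course of time and are not independent, so these values are descriptions.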

How the data were processed

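Bulk and SCRB-seq libraries were made with 3′ tags and UMIs. Per the study's methods the authors aligned reads to RefSeq mRNAs of mm10 with BWA 0.7.4 and deposited UMI counts per gene, for bulk libraries and for each of 384 wells per plate. 3′ tags see one end of a transcript, and reads shared by near-identical genes may be split. SMART-seq2 values were deposited by the authors as RPKM from TopHat and Cuffnorm, whose versions are not given in the sources used here. Depth in reads is not given by that table.

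The members and all gene lists were chosen with earlier results of these data known. The bulk table had 23481 rows, of which 23475 were used: 2 genes with text in place of a count and 4 rows with a repeated name were left out. Bulk CPM used library totals, with exact Poisson or conditional binomial 95% intervals (scipy 1.17.1). The 3 groups of 2 libraries were fitted in R 4.3.3 with edgeR 4.0.16 (filterByExpr, TMM, quasi-likelihood F-test, two-sided, Benjamini-Hochberg over 8945 genes, called at adjusted p under 0.05). All 9 members passed the filter, Bhmt and Cpt1a only through the mESC libraries. On simulated data with 200 changed genes among 8702 in the comparison of lineages, 158 (79%) were recovered with 8 false calls. The changed genes were drawn only from the more abundant ones, folds of several sizes were pooled, and all genes were given the same spread. The share recovered therefore does not describe low members such as Gldc and Cpt1a. Comparisons of single libraries have no test. For these, genes with at least 50 counts in the pair and a ratio of 2 or more gave the background.

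From each SCRB-seq plate the 137 to 335 wells above 2000 UMIs entered, thinned to 2000 UMIs for shares of cells. All 384 well names recur on every plate, so cells were kept apart by plate. No doublet caller was run. SMART-seq2 cells (82 to 89 per time point) were brought to 1 common RPKM sum, the median sum at 0 h, as in the study's methods, and 0.127 to 0.14% of values held text and were set to 0. Cells are not replicates.

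Named genes were the 9 members. From each pathway list they were the called genes with 10 or more counts in both libraries of one sorted group, at most 4 by size of change, and genes over 50 CPM in mESCs that lay 4-fold or more away in both sorted groups. For likeness they were the 5 genes most correlated with Tdh. Alternatives were RLE scaling, DESeq2 1.42.0, no filter, the 4 sorted libraries only, a replicate block, leaving out each library, other references, scalings, thresholds and assays for the time of loss, and other cell and RPKM thresholds.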

Additional observations from a re-analysis of the deposited data

Results flagged for a closer look

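Tdh and Upp1 held more transcript in one lineage than in the other, and this difference between groups was called by edgeR. The members were chosen with earlier results of these data known, so the test is not independent support. Tdh was higher in sorted XEN-like than in sorted ectoderm-like cells by 1.97 on the log2 scale (both XEN-like libraries above both ectoderm-like ones), and Upp1 by 1.92 in the same way. The values in each library and the edgeR tests are given with the comparison of the lineages. Both calls were lost without sorted ectoderm-like library 1, and SCRB-seq cells rich in XEN-like transcripts held 1 UMI of each gene at 96 h.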

How the results depend on the processing

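No called difference changed sign. Between the lineages 2 members were called, and leaving out 1 library gave 0 to 3: 0 without sorted ectoderm-like library 1, 2 without each other sorted library, and 3 (Gldc added) without either mESC library, an alternative chosen after seeing the data. For the 9 called pathway genes the range was 0 to 13: 0 to 3 without a sorted library and 13 and 12 without mESC library 1 and 2. Without the low-count filter 14 were called. With the replicate block 4 members and 29 pathway genes were called (Gldc, adjusted p = 0.00206, and Psat1, adjusted p = 0.0164, by edgeR were added). The replicate numbers of the sorted libraries were not said to mark a shared batch, and their deviations correlated at 0.368 over 1 value per gene, with only 2 pairs. Leaving out 1 library turned the sign of log2 fold changes that were not called. Between the lineages, Gcat ranged from -0.69 to 0.24 (the latter without XEN-like library 2) and Phgdh from -0.66 to 0.33 (0.31 without ectoderm-like library 2, 0.33 without XEN-like library 1). Against mESCs, ectoderm-like Gldc ranged from -0.98 to 0.39 and XEN-like Psat1 from -0.94 to 0.54, both turning without mESC library 2. Phgdh against mESCs ranged from -0.055 to 1.46 for ectoderm-like cells and from -0.18 to 1.34 for XEN-like cells, turning without mESC library 1 and, in the latter, without XEN-like library 2 (-0.14). Among the fold changes recomputed, 8 gained and 8 lost the call, the latter being Tdh and Upp1 without sorted ectoderm-like library 1, Gcat in ectoderm-like cells against mESCs without either ectoderm-like library, Bhmt against mESCs with DESeq2 in both lineages, and Gldc in XEN-like cells against mESCs without XEN-like library 1 or mESC library 2. Time of loss of Tdh was 24 h at a 25% threshold or in SCRB-seq sums. It was 60 h for Gcat against mESC library 2 and 12 h with TMM scaling, and 36 h for Bhmt against mESC library 2 or in SCRB-seq. For Upp1 it was 60 h against mESC library 2 or at the 25% threshold and 72 h in SCRB-seq, and for Cpt1a 24 h against mESC library 1 or at the 25% threshold. At 25%, Gcat had no time of loss. SCRB-seq sums gave Psat1 a time of loss of 6 h and Gldc of 96 h, where bulk gave none. The cause of these differences was not tested. Ratios of the mESC libraries stayed within their intervals with TMM scaling. Depth limits Bhmt, Cpt1a and Gldc, at 0 to 26 UMIs in sorted libraries.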
